A study of Caenorhabditis elegans with 2 samples.

Results

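Nuclear hormone receptor genes of Caenorhabditis elegans were examined for peaks of HLH-11, a basic helix-loop-helix transcription factor. The set holds every protein-coding gene of the WBcel235 annotation whose symbol starts with nhr-, apart from nhr-10, nhr-13, nhr-49, nhr-66, nhr-68 and nhr-80. It has 263 genes, out of 269 with such a symbol and 19973 protein-coding nuclear genes in all. A gene was called bound when the summit of a peak in the authors' thresholded list lay between 1000 bp upstream and 500 bp downstream of any of its annotated starts. By that rule 73 of the 263 receptor genes were bound (27.8%, 95% exact binomial interval 22.4 to 33.6), beside 21.3% of all protein-coding genes. The rule for membership reads symbols alone, though the set was proposed with earlier results of these data known.

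The data are chromatin immunoprecipitation and sequencing (ChIP-seq) peak lists from whole worms of strain OP396, whose genotype is unc-119(tm4063) III; wgIs396. The transgene wgIs396 adds a GFP-FLAG tag to the C-terminal end of HLH-11, so the lists report the tagged protein, which was recovered with an antibody against GFP. The animals were L4 larvae of both sexes at 53 hours, grown on from bleached embryos held without food at the L1 stage. There is 1 group with 2 biological replicates, so no genotypes or conditions were compared, and tissues within the animal cannot be told apart. Each peak carries a signal value from the authors' peak caller, which is used here only to rank and describe peaks within a list. The thresholded list holds the 7863 strongest peaks of the pooled replicates, with signals from 88.3 to 2943 and a median of 181, and rank 1 is the strongest.

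Nuclear hormone receptors are transcription factors with a zinc-finger DNA-binding domain and, in most cases, a domain that can hold a small lipid-like ligand. Nematodes have an unusually large family. Much of it is related to vertebrate HNF4, while a small number of genes have direct counterparts in flies and mammals, and these take part in moulting, developmental timing, neuron identity and the handling of sterols and toxins. Several HNF4-related members control fat and amino acid metabolism in the intestine.

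Sequences under receptor-gene peaks are shown because they carry the features counted further on. They were read from the RefSeq genome of WBcel235, which equals build ce11 in chromosome lengths, and are written 5′ to 3′. The windows of 101 bases are on the strand of the gene. The first pair shows the 101 bases centred on the summit, with capitals marking GATA-type sequences, here TGATAA or CTTATC on either strand. The peak of nhr-119 is the strongest at the start of a receptor gene on II (II:2800967-2801067, minus strand), and that of nhr-88 (II:2975721-2975821, plus strand) holds overlapping copies.
nhr-119: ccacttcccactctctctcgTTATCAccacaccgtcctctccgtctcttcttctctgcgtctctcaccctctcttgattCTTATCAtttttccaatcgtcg
nhr-88: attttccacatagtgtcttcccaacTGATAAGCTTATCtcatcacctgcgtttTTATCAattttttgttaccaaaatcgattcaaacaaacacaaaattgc
The next window is that of nhr-11 (IV:9070345-9070445, plus strand), with CAGCTG in capitals. CAGCTG is the palindromic E-box bound by AP-4, the mammalian relative of HLH-11, and of the 84 receptor-gene peaks only the peaks of nhr-11 and nhr-21 had it within 50 bp of the summit.
nhr-11: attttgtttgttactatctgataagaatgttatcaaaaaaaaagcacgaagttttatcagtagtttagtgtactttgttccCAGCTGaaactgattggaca
The strongest peak at the start of any receptor gene, that of nhr-35 (X:4532302-4532402, plus strand), had neither of these sequences in the same window. Its window is shown with no capitals for that reason.
nhr-35: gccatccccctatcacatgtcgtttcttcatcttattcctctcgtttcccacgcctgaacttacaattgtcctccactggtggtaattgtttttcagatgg

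A further set shows TGCGTCTC in capitals with 11 bases on each side, at 7 of the 14 receptor-gene peaks that had it near the summit. This 8-base sequence was chosen after values had been seen. Each site is written on the strand that reads TGCGTCTC, which for nhr-142 is the strand opposite to the gene. The sites lie at V:532187-532216 (plus) for nhr-58, II:2800994-2801023 (minus) for nhr-119, IV:9670147-9670176 (minus) for nhr-34, V:5791000-5791029 (plus) for nhr-142, V:18838983-18839012 (plus) for nhr-65, IV:1623950-1623979 (plus) for nhr-87 and V:2231089-2231118 (plus) for nhr-134.
nhr-58: gcaatagtgtcTGCGTCTCtcttttcaatg
nhr-119: ctcttcttctcTGCGTCTCtcaccctctct
nhr-34: ctaggactgtcTGCGTCTCtgatttttgaa
nhr-142: tgtctccaagtTGCGTCTCctcgattcgta
nhr-65: tttgagttgtcTGCGTCTCtcgccgctggg
nhr-87: tcttctttctcTGCGTCTCttctctctcac
nhr-134: cttttacacccTGCGTCTCtccatgtcttc

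Outside the 8 shared bases these sites differ. Of the 14 sites, 11 could be written with 11 bases on both sides. Over the 55 pairs of those 11 sites, a median of 7 of the 22 flanking bases were identical, with a range of 3 to 12. A c stood directly before the shared bases in 9 of the 11 sites, and a t directly after them in 9.

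The strongest receptor-gene peaks were spread over several chromosomes. nhr-35, on X (4532691 to 4537546), had a signal of 1009 at rank 179, with the summit 339 bp upstream of a start. Its signal was 388 in replicate 1 and 627 in replicate 2, where it ranked 245 and 152. nhr-58, on V (532259 to 534070), followed with 824 at rank 299, 58 bp upstream, and 376 and 444 in the replicates. nhr-1, on X (17514063 to 17528197), had 767 at rank 341, with 319 and 451. Each of these peaks ranked within the first 400 places of both replicate lists. nhr-35 was the strongest of the 3 in each, and nhr-58 and nhr-1 changed places between the replicates.

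The next peaks in order were at nhr-48 on X (signal 706, rank 423), nhr-119 on II (641, 514) and nhr-135 on V (624, 542). nhr-57 on V, a gene induced by low oxygen through HIF-1, had 623 at rank 543, and nhr-47 on V had 611 at rank 572. nhr-105 on IV (587, rank 622), nhr-64 on I (535, 743), nhr-114 on V (518, 789) and nhr-178 on V (480, 906) complete the 12 strongest. All 12 peaks had a partner in both replicates, with signals from 198 to 388 in replicate 1 and from 265 to 627 in replicate 2. On III the strongest was nhr-121, with 219 at rank 3084.

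At the other end, the weakest bound genes lay close to the threshold. nhr-84 had a signal of 95 at rank 7411, nhr-25 had 92.1 at rank 7607 and nhr-109 had 90.7 at rank 7693. The unbound genes with the strongest weaker summit in the window were nhr-107 with 87.5 at pooled rank 7916, nhr-19 with 85.6 at 8071 and nhr-258 with 78.1 at 8666. These values just inside and just outside the threshold differ by little, and nhr-84, nhr-25 and nhr-109 each lost the call when replicate 2, replicate 1 or either replicate, in that order, was ranked alone.

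The conserved receptors, those with clear counterparts in flies or mammals, were bound in 6 of 10 cases (interval for the share 26.2% to 87.8%), beside 21.3% of all protein-coding genes. This list and the role lists below were drawn up with earlier results of these data known, so their intervals describe counts only. More than 1 start was annotated for 80% of this list, and other genes with more than 1 start were bound in 33.8% of cases. With the strongest 3931 peaks alone the count was 3, and genes outside the receptor set were bound in 12.3% of cases (21.2% with the whole list). nhr-48 and nhr-8, both relatives of the steroid receptor daf-12, had signals of 706 and 452, and nhr-8, which acts in toxin resistance and sterol balance, had its summit 65 bp downstream of a start. nhr-85, the Rev-erb counterpart and a developmental timing gene, had 326. nhr-41, the TR2/TR4 counterpart, had 167, and this summit lay at a tRNA gene, with 28.3% of its 36-base words repeated elsewhere in the genome. nhr-23, the ROR counterpart that drives the moulting cycle, had 135. nhr-25, the Ftz-F1 counterpart needed for moulting and epidermal development, had 92.1 and ranked 10723 in replicate 1 and 6804 in replicate 2. The unbound 4 were nhr-6 (the NR4A counterpart), nhr-67 (the tailless counterpart), nhr-91 (the GCNF counterpart) and nhr-111.

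Some of the unbound conserved genes had a thresholded summit outside the window. The nearest to nhr-6 lay 1902 bp upstream, with a signal of 215. nhr-91 had a peak 1066 bp downstream of its nearest start, with 243, and no partner for that peak was found within 100 bp in replicate 1. Its second peak, 1269 bp downstream with 140, had 84.5 in replicate 1 and 33.2 in replicate 2. For nhr-67 and nhr-111 the nearest summits lay 9677 and 24556 bp downstream. The 253 receptor genes outside the conserved list were bound in 67 cases (26.5%).

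Of 8 genes of metabolism, diet and fat, 7 were bound (interval for the share 47.3% to 99.7%), beside the same 21.3% of all genes and 33.8% of other genes with more than 1 start, which 75% of this list had. The HNF4-related receptors nhr-64 and nhr-69 had signals of 535 and 454. For nhr-64, whose summit lay 25 bp downstream of a start, the replicates gave 233 and 302, and for nhr-69, 773 bp upstream, they gave 225 and 225. nhr-114, which protects the germline when the diet is low in vitamin B12, had 518, with 198 and 325 in the replicates. nhr-31, which acts in the excretory canal, had 227. nhr-62, known from the lifespan response to diet restriction, had 129 with its summit 971 bp upstream. nhr-8 and nhr-25 complete the 7. nhr-76 was unbound, and its nearest summit lay 1220 bp upstream with a signal of 165.

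Genes of moulting, timing and development were bound in 4 of 8 cases (50%, interval 15.7 to 84.3), beside 21.3% of all protein-coding genes. The interval held that share. More than 1 start was annotated for 62.5% of this list, and other genes with more than 1 start were bound in 33.8% of cases. nhr-40, which acts in muscle and movement, had 258, and nhr-85, nhr-23 and nhr-25 had the values given above. The unbound genes were nhr-2, nhr-6, nhr-60 and nhr-67. The nearest thresholded summit to nhr-2, a gene of the early embryo, lay 6038 bp upstream.

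Genes of stress, toxin and pathogen responses were bound in 3 of 6 cases (50%, interval 11.8 to 88.2), beside 21.3% of all protein-coding genes. The interval held that share. Besides nhr-57 and nhr-8, nhr-86, a sensor of a bacterial pathogen's metabolite, had a signal of 124, with 61.5 and 70.5 in the replicates. nhr-14 had a weaker window summit of 71.3 but a peak of 555 in its body, 861 bp downstream of the nearest start. nhr-45 had a window summit of 42.8, and nhr-176, which acts in the response to thiabendazole, had none among the 30000 pooled peaks. Over all role lists together, 14 of 24 genes were bound (58.3%, interval 36.6 to 77.9), and 59 of the 239 receptor genes in no list (24.7%, interval 19.4 to 30.7). Since the lists were drawn up with earlier results known, the intervals describe these counts only. Some genes stand in more than 1 list and are counted once here. These lists differ from the other receptor genes in annotation too: 62.5% of their genes had more than 1 annotated start, against 31.4% of the rest. Genes outside the receptor set with more than 1 start were bound in 33.8% of cases.

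Other genes of the receptor pathway were bound in 2 of 11 cases (18.2%, interval 2.28 to 51.8), beside 21.3% of all protein-coding genes. cbp-1, the p300/CBP acetyltransferase that receptors recruit, had a signal of 1874 at rank 25. din-1, a corepressor of daf-12, had 1112 at rank 135. The Mediator subunit gene mdt-15, the receptors daf-12, sex-1, fax-1, odr-7 and unc-55, and the dafachronic acid synthesis genes daf-9, daf-36 and hsd-1 were unbound. mdt-15, daf-12 and sex-1 had weaker window summits of 51.1, 68.4 and 50.2. daf-12 also had 7 thresholded peaks in its body outside the window, the strongest with a signal of 819. No other unbound gene of this list had a body peak.

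Of the 6 receptor genes left out of the set, 5 were bound (83.3%, interval 35.9 to 99.6), beside 21.3% of all protein-coding genes. More than 1 start was annotated for 83.3% of the 6. Signals were 1600 for nhr-68, 853 for nhr-66, 634 for nhr-49, 264 for nhr-80 and 142 for nhr-13. Among families of another kind, 10 of 63 homeobox genes with ceh- symbols were bound (15.9%, interval 7.88 to 27.3). Of 25 genes with hlh- symbols, 3 were bound (12.0%, interval 2.55 to 31.2). Both intervals held the share of all genes.

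By chromosome, the bound share of receptor genes ran from 21.2% to 60.9%. On X, 14 of 23 were bound (60.9%, interval 38.5 to 80.3), beside 28.2% of all protein-coding genes of X. On IV, 13 of 32 were bound (40.6%, interval 23.7 to 59.4), beside 18.1%. On both chromosomes the interval lay above the share of the other genes, which was 27.9% on X and 17.9% on IV. These intervals cover the counting of genes as if independent, which neighbouring genes need not be. More than 1 start was annotated for 52.2% of receptor genes on X (other genes 25.4%) and 43.8% on IV (other genes 32.1%).

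On the other autosomes the shares lay nearer to the background. On V, which holds 62.7% of the receptor genes and 24.5% of the other genes, 35 of 165 were bound (21.2%, interval 15.2 to 28.2), beside 16.9%. On I, 5 of 22 were bound (22.7%), beside 22.9%. On II, 4 of 15 were bound (26.7%), beside 20.6%, and on III, 2 of 6 (33.3%), beside 25.4%. On each of these 4 chromosomes the interval of the receptor genes held the share of the other genes. The strongest receptor-gene peaks were at nhr-35 on X, nhr-105 on IV, nhr-58 on V, nhr-64 on I, nhr-119 on II and nhr-121 on III.

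**Figure D1:**
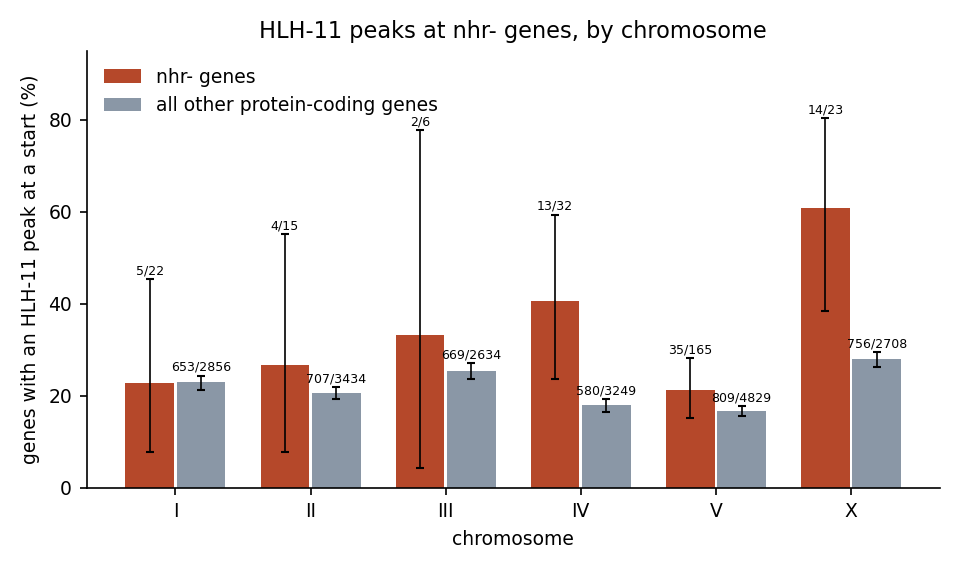
Bars give the percentage of genes with a thresholded HLH-11 summit in the start window on each chromosome, for the 263 receptor genes (red) and all other protein-coding genes (grey), with 95% exact binomial intervals and the counts above the bars. X (14 of 23) and IV (13 of 32) have the highest red bars, while V holds the most receptor genes and 35 of its 165 were bound.

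The place of so many receptor genes on V lowers the number bound that their chromosomes alone would give. At the other genes' share on each chromosome, 49.4 receptor genes would be bound, against 55.7 at the share of the whole genome, and 73 were. The ratio was 1.48 with the chromosome in account and 1.31 without it. Off V the count was 38 against 21.8 (1.75), and on V it was 35 against 27.6 (1.27).

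Genes with more starts have more windows in which a summit can fall, and 34.2% of receptor genes had more than 1 annotated start, against 26.2% of other genes. With genes also split into those with 1 start and those with more, the ratio was 1.36 over all receptor genes, 1.62 off V and 1.16 on V. How many starts a gene had beyond 1 was not taken into account. Off V, 25 of 37 receptor genes with more than 1 start were bound (67.6%, interval 50.2 to 82.0), and 34.9% of other such genes. With 1 start, 13 of 61 were bound off V (21.3%, interval 11.9 to 33.7), and 18.0% of other such genes. Off V the interval lay above the share of other genes for receptor genes with more than 1 start. For those with 1 start the interval held the share of other genes, but it reached 33.7% and so held higher shares too.

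On V the pattern differed along the chromosome. In the left part of 3 equal lengths, 23 of 77 receptor genes were bound (29.9%, interval 20.0 to 41.4), and 16.2% of the other genes there. In the middle part 6 of 40 were bound (15%), against 21.8%, and in the right part 6 of 48 (12.5%), against 11.7%. The other genes of V include 908 with chemoreceptor symbols, of which 19 were bound (2.09%). Without them 20.1% of the other genes of V were bound, close to the 21.2% of the receptor genes.

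The bound receptor genes off V had a higher median signal than those on V. The median signal of the strongest peak was 258 over the 38 bound genes off V, at a median rank of 2460, and 183 over the 35 on V, at 3870. Other bound genes had medians of 206 off V and 200 on V. Over all 73 the median was 220 at rank 3074, against 205 at rank 3354 for the other bound genes. In 4 equal parts of the thresholded list, from strongest to weakest, the receptor genes numbered 25, 19, 19 and 10. The weakest part held 13.7% of them and 19.4% of the other bound genes.

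**Figure D2:**
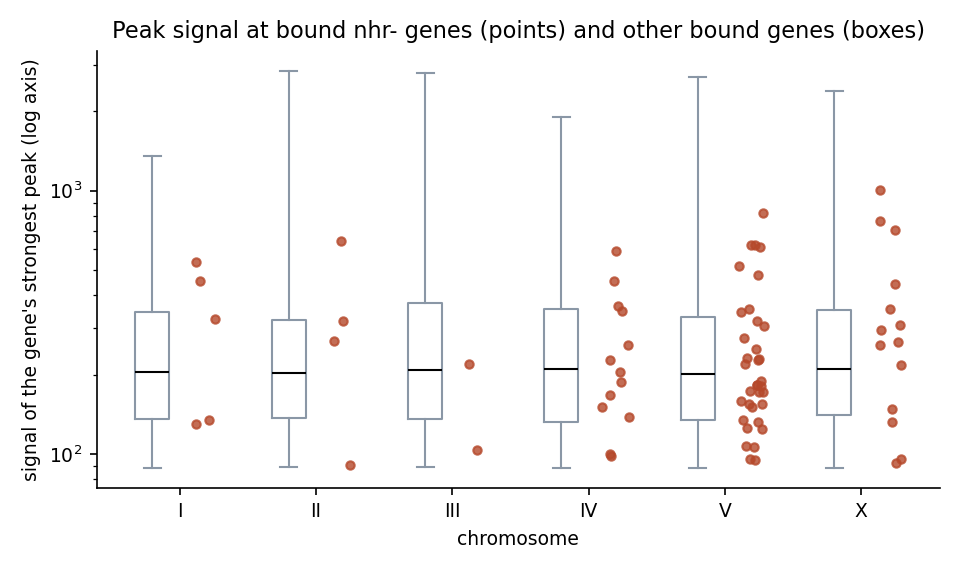
Points give the signal of the strongest peak at each of the 73 bound receptor genes, on a log axis, by chromosome, and boxes give the other bound genes (quartiles and median, whiskers to the extremes). The highest points are nhr-35 on X (1009) and nhr-58 on V (824), and the other points on V lie between 95 and 624.

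Off V the receptor genes had the higher share at each depth of the pooled list from 500 to 30000 peaks. Among the strongest 100 and 300 peaks, which reached at most 1 receptor gene off V, their share was the lower. Counting the strongest 3931 pooled peaks, 25.5% of receptor genes off V had a summit in the window and 13.1% of other genes off V. At 7863 peaks the shares were 38.8% and 22.6%, and at 30000 they were 52.0% and 44.0%. On V the shares were 11.5% and 9.69% at 3931 peaks, and 30.9% and 30.3% at 30000. Over all receptor genes the share was the lower of the pair by 25000 peaks (37.6% against 37.7%). Of the 190 unbound receptor genes, 29 had a weaker summit in the window and 161 had none among the 30000 pooled peaks (61.2% of receptor genes, 59.4% of other genes).

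**Figure D3:**
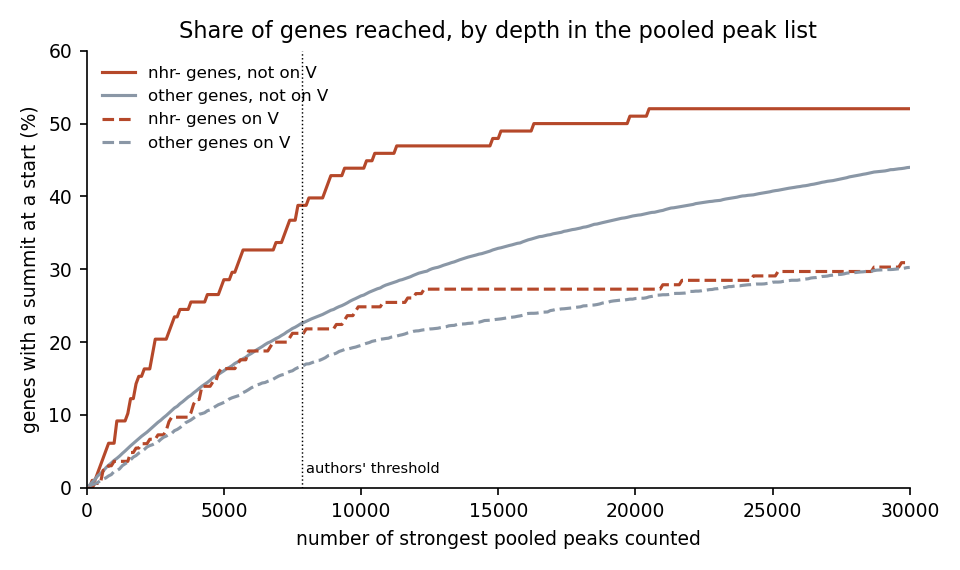
Lines give the percentage of genes with a summit in the start window as more of the pooled peaks are counted, from the strongest down, for receptor genes (red) and other genes (grey), off V (solid) and on V (dashed). Off V the red line lies above the grey one from 500 through 30000 peaks (52.0% against 44.0% at the end), and on V the lines end at 30.9% and 30.3%.

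Summits at receptor genes lay mostly upstream of a start and near it. The median distance from the nearest start was 191 bp, against 240 bp, and 56 of 73 summits lay upstream (76.7%, against 89.2%). Among genes with 1 start the upstream shares were alike (90.6% against 90.7%), and among those with more than 1 start they were 65.9% and 87.0%. Within 300 bp of a start lay 60.3% of the summits, against 59.5%. On V the median was 118 bp, and 27 of 35 summits lay within 300 bp (77.1%, against 63.8% of other bound genes of V). Off V the median was 324 bp, and 17 of 38 lay within 300 bp (44.7%, against 58.4%). nhr-47 on V, with its summit 12 bp upstream, and nhr-48 on X, with 587 bp, are examples among the strong peaks. More than 1 thresholded peak lay in the window of 2 bound genes on V and of 9 off V, nhr-1 and nhr-23 among the latter.

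**Figure D4:**
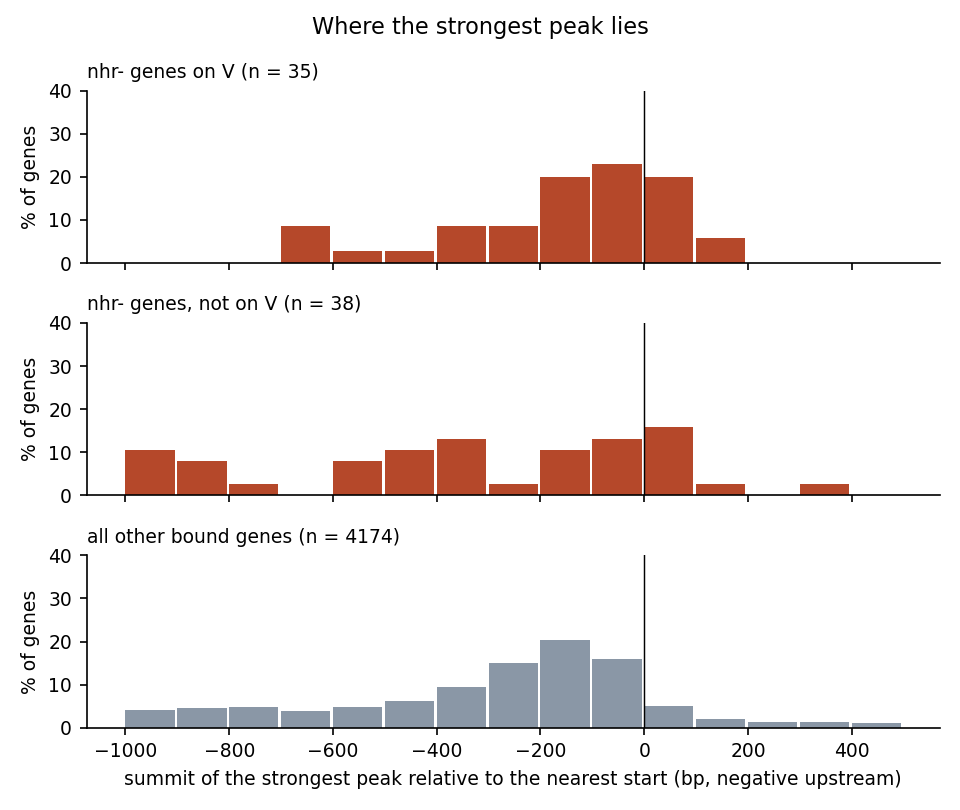
Histograms give the position of the strongest peak's summit relative to the nearest start in bp, negative upstream, as a percentage of bound genes, for receptor genes on V (35), receptor genes off V (38) and all other bound genes (4174). On V most summits fall within 300 bp of the start (77.1%), and off V they reach to the far end of the window more often.

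Many receptor genes stand beside each other. Of 137 with another nhr- gene as a direct neighbour, 30 were bound (21.9%, interval 15.3 to 29.8), and of 126 without, 43 (34.1%, interval 25.9 to 43.1). On V the counts were 24 of 107 (22.4%) and 11 of 58 (19%). The lower share beside another nhr- gene was thus seen off V and not on V. There were 22 runs of at least 3 nhr- genes with gaps of at most 10000 bp, holding 115 genes, of which 26 were bound (22.6%), and 11 of the runs held no bound gene. The shares beside another nhr- gene and within runs were near the 21.3% of all protein-coding genes. V holds 107 of the 137 genes beside another nhr- gene, and 16.9% of all protein-coding genes of V were bound.

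Runs of like size differed in how many genes were bound. At the left end of V (451451 to 497297), 7 of 12 genes were bound by 7 separate peaks, namely nhr-203, nhr-202, nhr-99, nhr-55, nhr-130, nhr-212 and nhr-131, with signals from 125 to 229. A further 3 genes of this run had a weaker summit. In the run from nhr-178 to nhr-238 (V, 1603906 to 1629432) 4 of 7 were bound, led by nhr-178 with 480. In contrast, none of 9 genes from nhr-185 to nhr-124 (3844429 to 3886204) and none of 8 from nhr-51 to nhr-53 (15674007 to 15702363) were bound, and neither run held a weaker summit.

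**Figure D5:**
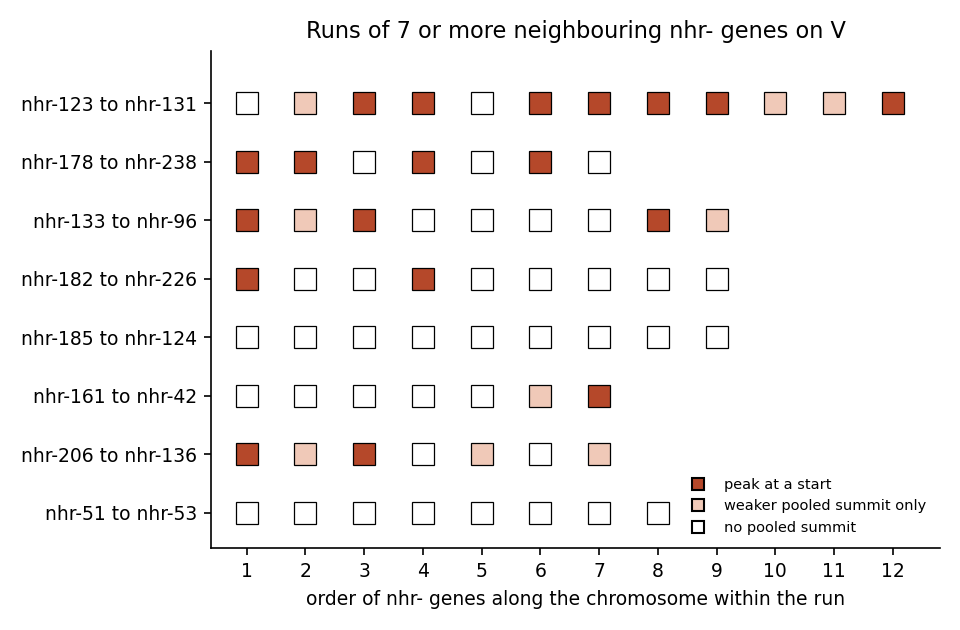
Each row is a run of 7 or more neighbouring nhr- genes on V, in order along the chromosome, and each square is a gene, dark where a thresholded summit lay at a start, pale where a weaker pooled summit did, and white where none did. The top row (nhr-123 to nhr-131) has 7 dark squares of 12, and the rows from nhr-185 and from nhr-51 have none.

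The strongest HLH-11 peaks in receptor genes were not all at starts. Inside the body of a gene but outside its window, 29 receptor genes had a thresholded peak (11%, against 5.53% of other genes), 26 of them off V. Receptor genes off V had a median length of 3036 bp and those on V 2140 bp, and other genes over the genome 2021 bp, and the part of length in these counts was not tested. nhr-19 on II, unbound at its starts, had a body peak with a signal of 1304 at rank 78, lying 1627 bp downstream of the nearest start outside any exon, with 538 and 761 in the replicates. nhr-3 on X had one of 1135 at rank 128, with 466 and 670, while its strongest peak at a start had 310. Both body peaks were stronger than the peak of nhr-35, the strongest at a receptor-gene start.

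Other body peaks were seen at nhr-46 (signal 590), nhr-14 (555), nhr-27 (535), nhr-48 (482) and nhr-34 (396). nhr-27 had 7 of them, of which 4 lay in the start windows of the genes cept-1, alh-13, abf-5 and abf-6. Counting body peaks and start peaks together, 82 receptor genes had at least 1 (31.2%, against 23.9% of other genes). Off V it was 45 of 98 (45.9%), and on V 37 of 165 (22.4%).

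Most receptor-gene peaks belonged to 1 gene. The 73 genes were reached by 84 peaks, and 5 of these also lay in the window of another gene (5.95%, against 18.9% of the other 4087 promoter peaks). Those 5 were shared by nhr-47 with dnj-19, nhr-142 with F44E7.9, nhr-206 with R07B7.12, nhr-59 with fbxa-137 and nhr-280 with C29F9.2. No peak lay in the windows of 2 receptor genes. A summit at a tRNA, snoRNA or snRNA gene was found for 3 of the 84 (3.57%, against 2.32%), at nhr-255, nhr-41 and nhr-193.

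Most receptor-gene peaks were found in both replicates. Among the 84 peaks, 69 had a summit within 100 bp in the strongest 7863 of both replicates (82.1%, against 80.4%). In the stronger part of the thresholded list this held for 46 of 47 (97.9%, against 98.2%), and in the weaker part for 23 of 37 (62.2%, against 60.4%). In the whole replicate lists 81 of 84 were found in both. nhr-206 on V, with a pooled signal of 228 and 108 in replicate 1, had no partner in replicate 2. With each replicate ranked alone, 72 and 75 receptor genes were bound, and 63 were bound in the pooled list and in each replicate.

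The sequences shown at the start were counted within 50 bp of the summit on both strands. GATA-type sequences were present at 25 of the 84 receptor-gene peaks (29.8%, against 27.6% of other promoter peaks), and in 12.6% of windows of the same width centred 250 bp upstream of 1 start of every gene. CAGCTG was present at 2 (2.38%, against 4.65% and 1.84%), so 2 peaks carry this count. Within 100 bp it was present at 5 (5.95%, against 7.39%). Any E-box of the form CANNTG was present at 37 (44.0%, against 43.4% and 30.9%). In those upstream windows of the receptor genes alone the share was 38%. The form includes CACGTG, present at 6 peaks (7.14%, against 5.58%), and CACATG at 10 (11.9%, against 7.14%), the peak of nhr-35 among the latter. GAGAGA was present at 26 (31.0%, against 23.7%), with nhr-58, nhr-1, nhr-48, nhr-119 and nhr-135 among them. AGGTCA, the core sequence that many nuclear receptors bind, was present at 3 (3.57%, against 3.67%), at nhr-85, nhr-55 and nhr-23.

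TGCGTCTC was present at 14 of the 84 peaks (16.7%, interval 9.42 to 26.4), against 7.19% of other promoter peaks and 0.956% of the windows set by position. The sequence was chosen after values had been seen, so the interval and the contrasts are descriptions only. Among the peaks in the stronger part of the thresholded list it was present at 5 of 47 (10.6%, against 8.73%). On V it was present at 10 of 37 receptor-gene peaks (27.0%), against 58 of 760 other promoter peaks (7.63%), and off V at 4 of 47 (8.51%), against 7.09%. The genes on V were nhr-58, nhr-142, nhr-193, nhr-65, nhr-133, nhr-207, nhr-134, nhr-182, nhr-95 and nhr-84, and off V they were nhr-119, nhr-34, nhr-87 and nhr-92. Their signals ran from 824 at nhr-58 to 95 at nhr-84. It overlaps CGTCTC, present at 20 receptor-gene peaks (23.8%, against 15.1%), and, on the other strand, part of ACGCAG, present at 18 (21.4%, against 13.1%). The GC content within the same windows was 43.0% at receptor-gene peaks and 44.3% at other promoter peaks.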

How the data were processed

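Peaks came from 2 biological replicates of 1 group. Per the labels and accompanying notes, the authors made 1 list per replicate and a pooled list, of 30000 peaks each. They thresholded the pooled list by the irreproducible discovery rate (IDR) to 7863 peaks. The deposited signal is the authors' peak height and its scaling is not stated. The deposited −log10 q values reach a ceiling and were not used. The sources used here name no aligner or peak caller and do not describe the control library, so what the signal is measured against is unknown, and the lists hold no read counts, so depth is unknown. The build is ce11, per the labels.

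Starts came from the Ensembl 115 annotation of WBcel235, and the table of nuclear genes leaves out mitochondrial ones. A summit could count for several genes. Replicate partners were summits within 100 bp. Intervals are exact (Clopper-Pearson) binomial, 95%, and cover the counting of genes or peaks only. Chromosome-adjusted counts sum the other genes' bound shares over the receptor genes. Neither tests across genes nor p-values were made, since all genes share the same libraries. A gene's role list, the genes named by rule (the 12 strongest, all role-list genes, 3 on each side of the threshold, the strongest of each chromosome, the pathway genes) and the members were chosen with earlier results of these data known. Genes named for body peaks, runs, sequences, shared or tRNA-gene peaks, or as examples were chosen after their values were seen. The window assignment was tested on simulated data. Work was done in Python 3.11.15 with numpy 2.4.6, pandas 2.3.3, scipy 1.17.1 and matplotlib 3.10.9.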

Additional observations from a re-analysis of the deposited data

How the results depend on the processing

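Results were recomputed over 71 alternatives, and 65 stayed within the margin set for their kind. With the strongest 3931 peaks alone, 44 receptor genes were bound (73 with the whole list), 19 on V, 25 off V, 3 of the conserved receptors and 41 of the rest. The share of other genes was 12.3% at that setting (21.2% with the whole list). The ratio to other genes was then 1.36 over all, 1.19 on V and 1.94 off V. With the main setting these ratios, taken without adjustment for chromosome, were 1.31, 1.27 and 1.71. The alternatives for the ratio off V were not planned beforehand. A GATA-type sequence was found at 46.4% of peaks within 100 bp of the summit, a wider window (other promoter peaks 41%). With each replicate left out in turn, 72 to 75 receptor genes were bound, 35 to 38 on V and 37 off V, and the ratio to other genes was 1.31 to 1.32 over all, 1.30 to 1.36 on V and 1.63 to 1.69 off V. Without replicate 1, nhr-109, nhr-206, nhr-84, nhr-92 and nhr-95 were not called. Without replicate 2, nhr-109, nhr-134, nhr-182, nhr-25, nhr-28 and nhr-78 were not called. A window of 2000 bp upstream gave 82 bound genes (ratio 1.17), nhr-6, nhr-14 and nhr-76 among those added, and 500 bp gave 60 (1.33). When each summit counted only for the gene with the nearest start, 72 receptor genes and 17.6% of other genes were bound. That gave the highest ratios, 1.55 over all, 1.54 on V and 2.04 off V. Leaving out peaks at tRNA, snoRNA and snRNA genes, an alternative chosen after seeing the data, removed nhr-255. No paired analysis was possible because there is 1 group. The unknown depth limits what an unbound gene shows: no summit passed the threshold there.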
